A study of Rattus norvegicus with 6 samples.

Results

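Aminoacyl-tRNA synthetases are the enzymes that join each amino acid to its transfer RNA (tRNA), and 32 genes of this family were followed here in the liver of rat pups. They were found by a rule on their annotated symbols, written with earlier results of these data known, among 14217 genes that had a probe set of their own on the array. Of the 32, 19 encode the enzymes of the cytosol and 13, with symbols ending in 2, encode enzymes of the mitochondrion. All 32 passed the filter on dim probe sets and were among the 10372 genes tested. A gene with several probe sets is represented by its brightest, judged by the mean of all 6 arrays.

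The arrays carried liver RNA of Sprague-Dawley offspring aged 3 weeks, at weaning, 3 from dams fed a high fat diet and 3 from dams fed standard chow, the control. The labels name no genotype or drug and no litters, so pups of 1 group may share a dam, and the p-values measure the spread between these 6 samples. The comparison asks how the mother's diet relates to the liver of the pup. Values are log2 signals on Affymetrix 3' expression arrays, quantile-normalized, and each change is high fat minus control on that scale with the standard error (SE) of limma, a linear model fitted to every gene at once.

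Protein synthesis in the cytosol and in the mitochondrion draws on separate tRNA pools, and in mammals nearly every amino acid has a nuclear gene for each compartment. A few genes serve both: Gars1 and Kars1 give rise to a cytosolic and a mitochondrial form, and Eprs1 encodes 2 enzymes, for glutamate and for proline, in 1 protein. Several cytosolic synthetases sit together in the multisynthetase complex, held by the scaffold proteins Aimp1, Aimp2 and Eef1e1. When amino acids run short, uncharged tRNA activates the kinase GCN2, translation of the transcription factor ATF4 increases, and ATF4 binds composite C/EBP-ATF elements near genes of amino acid supply, many cytosolic synthetase genes among them.

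The tissue label fitted the markers: albumin, Alb, lay between 14.46 and 14.77 on all arrays, and 7 hepatocyte genes had a summed level of 17.27 to 17.38 in high fat pups and 17.40 to 17.41 in control pups. High fat replicate 1 stood apart, since 12 of 13 exocrine pancreas genes were highest there. Their summed log2 level was 15.86 on that array and 10.92 to 12.05 on the others. High fat replicate 3 stood apart in sex-linked transcripts, with Xist at 4.45 against 12.46 to 13.31 elsewhere. Eif2s3y was at 11.14 on it, against 0 to 3.99 elsewhere. By these transcripts that array read as male and all others, every control among them, as female. Whether sex bears on the changes below was not tested. The 6 genes of dividing cells of high fat replicate 3 summed to 10.76, the highest of the arrays. The 6 sinusoidal endothelial genes summed to 13.40 to 13.79 in high fat pups, against 14.23 to 14.47 in control pups. In such bulk samples fewer cells of a type and less RNA per cell cannot be told apart.

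Transcripts of the cytosolic synthetases lay mostly higher in pups of high fat dams, and those of the mitochondrial enzymes lay on both sides of 0. Of the 19 cytosolic genes, 15 were higher and 4 lower, with a median change of 0.29. Of the 13 mitochondrial genes, 8 were higher and 5 lower, with a median of 0.036. Over all 10372 genes tested the median was -0.021 and 46.9% were higher. None of the 32 passed limma's test at an adjusted p under 0.05, which 0.0386% of all genes tested did. The smallest adjusted p of a synthetase gene was 0.142, for Gars1. In simulated data the procedure recovered 2% of 1.5-fold changes and 62% of 2-fold changes. Not passing therefore does not show that a synthetase gene was unchanged.

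Without adjustment, 8 of the 19 cytosolic genes had a limma p under 0.05, all of them higher, where 6.56% of all genes tested did so in that direction. In the other direction 7.51% did, and no synthetase gene was among them. None of the 13 mitochondrial genes had such a p in either direction. In 10 cytosolic genes every high fat array lay above every control array, and in 1, Qars1, every high fat array lay below. For the mitochondrial genes these counts were 2 and 1. Over all genes tested the shares were 9.24% above and 11.5% below. Leaving out 1 array at a time left 6 to 9 cytosolic genes with a higher value at a p under 0.05. With high fat replicate 1 left out the count was 8, and with replicate 3 left out it was 7. In the fits with 1 array left out, 10.2% to 13.2% of all genes tested had such a p in either direction.

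**Figure D1:**
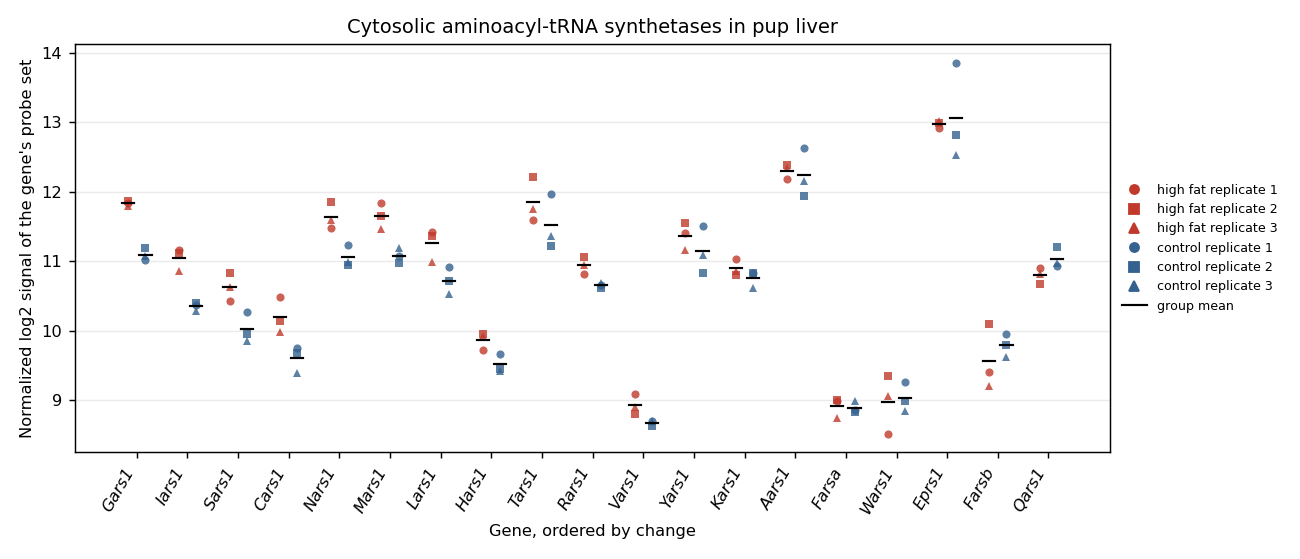
Normalized log2 signal of the 19 cytosolic synthetase genes on each array, with high fat pups left of control pups for each gene, marker shape for the replicate and a black line for each group mean. From Gars1 to Hars1, the 8 genes at the left, every high fat point lies above every control point, and the Eprs1 point of control replicate 1, at 13.86, stands far above the other arrays.

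Gars1, the glycine enzyme of both compartments, had the clearest separation. Its log2 signal was 11.83, 11.86 and 11.80 in high fat pups, against 11.02, 11.18 and 11.07 in control pups. The high fat arrays were tightly grouped (SD 0.031, n = 3) and the lowest of them was well above the highest control. This is 1.67-fold higher (log2 change 0.74, SE 0.12, limma adjusted p = 0.142), and with any 1 array left out the change stayed between 0.70 and 0.78. Iars1, which charges the isoleucine tRNA, was at 11.17, 11.12 and 10.86 in high fat pups and at 10.37, 10.40 and 10.29 in control pups. Here too the groups did not overlap, at 1.62-fold (0.70, SE 0.14, limma adjusted p = 0.170). Its second probe set, dimmer, gave 0.43 with the groups again apart.

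Sars1 and Cars1, the serine and cysteine enzymes, were the other members that were at least 1.5-fold higher with an unadjusted p under 0.05. This looser rule held for 4 of the 32, all cytosolic and higher, where 3.34% of all genes tested met it in that direction, 3.37% in the other and 6.71% in either. Sars1 read 10.43, 10.83 and 10.63 in high fat pups, against 10.27, 9.96 and 9.84 in control pups. The lowest high fat array was close above control replicate 1, and the fold was 1.52 (0.61, SE 0.17, limma adjusted p = 0.240). Cars1 read 10.48, 10.14 and 9.97 in high fat pups and 9.75, 9.67 and 9.39 in control pups, 1.51-fold higher (0.60, SE 0.18, limma adjusted p = 0.255). Of 3 further probe sets for Cars1, those at 0.68 and 0.86 kept the groups apart, and the dimmest, at 0.10, did not.

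Nars1 and Mars1 were just under the 1.5-fold limit. Nars1, the asparagine enzyme, was at 11.47, 11.85 and 11.58 in high fat pups, against 11.23, 10.95 and 10.99 in control pups (0.58, SE 0.16, limma adjusted p = 0.222). Mars1, which also charges the initiator tRNA with methionine, was at 11.84, 11.65 and 11.46 in high fat pups and at 11.07, 10.97 and 11.18 in control pups (0.58, SE 0.15, limma adjusted p = 0.209). In both genes all high fat arrays were above all control arrays. Lars1, the leucine enzyme, read 11.42, 11.36 and 10.99 in high fat pups, against 10.92, 10.71 and 10.53 in control pups (0.54, SE 0.17). Its groups were separated only narrowly, by high fat replicate 3 and control replicate 1. Hars1, for histidine, was the last of the 8, at 9.72, 9.95 and 9.93 in high fat pups and 9.67, 9.45 and 9.43 in control pups (0.35, SE 0.14). Its second, dimmer probe set pointed the other way, at -0.32.

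The arginine and valine enzymes differed by less, though without overlap between the groups. Rars1 had 10.82, 11.06 and 10.95 in high fat pups, against 10.65, 10.61 and 10.68 in control pups (0.29, SE 0.13), and Vars1 had 9.08, 8.80 and 8.90 in high fat pups, against 8.70, 8.63 and 8.69 in control pups (0.25, SE 0.13). Kars1, the lysine enzyme of both compartments, overlapped between the groups at a change of 0.14 (SE 0.13). The limma adjusted p was 0.362 for Rars1, 0.440 for Vars1 and 0.680 for Kars1.

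For a set of cytosolic enzymes control replicate 1 was the highest control and overlapped the high fat arrays. Eprs1, the glutamate and proline enzyme, was at 12.91, 12.98 and 13.01 in high fat pups and at 13.86, 12.81 and 12.53 in control pups. All 4 of its probe sets were highest in control replicate 1. Tars1, for threonine, read 11.59, 12.20 and 11.75 in high fat pups, against 11.97, 11.22 and 11.36 in control pups. Yars1, for tyrosine, read 11.40, 11.54 and 11.16 in high fat pups, against 11.51, 10.83 and 11.09 in control pups. Aars1, for alanine, also had its highest control in replicate 1, at 12.18, 12.39 and 12.33 in high fat pups and 12.63, 11.93 and 12.15 in control pups. Over all 6 arrays these changes were -0.096 for Eprs1 (SE 0.33), 0.33 for Tars1 (SE 0.25), 0.22 for Yars1 (SE 0.21) and 0.063 for Aars1 (SE 0.20). Without control replicate 1 they were 0.30, 0.56, 0.40 and 0.26 in that order, and without control replicate 2 they were -0.23, 0.19, 0.066 and -0.087. Tars1 was lowest, at 0.16, without high fat replicate 2, and Eprs1 at -0.36 without control replicate 3.

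Control replicate 1 held the highest control value for 13 of the 19 cytosolic genes and for 1 of the 13 mitochondrial genes, while it did so for 33.7% of all genes tested. Among high fat pups, replicate 2 was highest for 11 of the 19 cytosolic genes, against 34.1% of all genes. The cytosolic median relative to the control mean was 0.26, 0.41 and 0.24 in high fat replicates 1, 2 and 3, and 0.15, -0.047 and -0.088 in control replicates 1, 2 and 3. The mitochondrial median was 0.22, -0.063 and 0.075 in the high fat pups and -0.045, 0.061 and 0.062 in the control pups. So the cytosolic medians were higher on every high fat array than on any control array, and the mitochondrial medians overlapped.

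**Figure D2:**
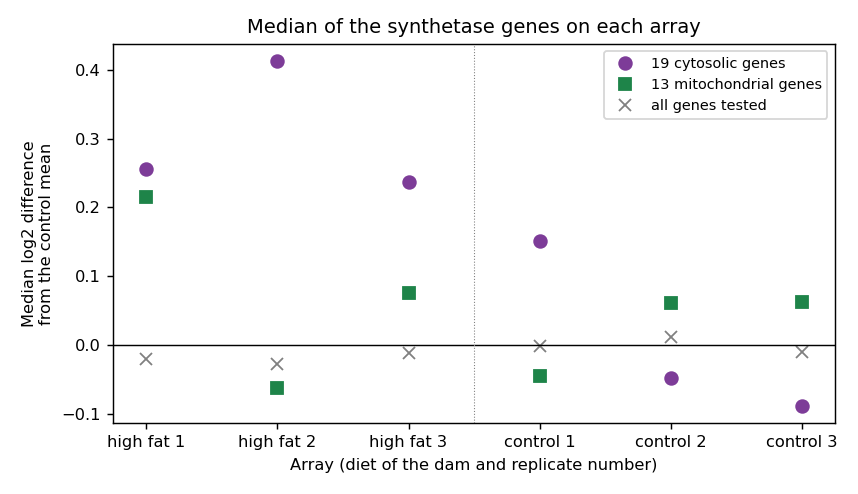
Median log2 difference from the control mean over the 19 cytosolic genes, the 13 mitochondrial genes and all genes tested, for each array, with the high fat pups at the left. The cytosolic medians of the high fat pups are 0.24 to 0.41, and control replicate 1, at 0.15, is the control closest to them.

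The array with pancreas transcripts, high fat replicate 1, was not the highest in the cytosolic median but was the highest in the mitochondrial median, at 0.22. Among high fat pups it was highest for 7 of the 19 cytosolic and 8 of the 13 mitochondrial genes, against 33.9% of all genes tested. With it left out, 4 of the 13 mitochondrial genes were higher, against 8 over all arrays, and their median change was -0.029. Without high fat replicate 1 the cytosolic median change was 0.36, and without high fat replicate 3 it was 0.32. Without replicate 1, Cars1 was at 0.46, Lars1 at 0.46, Mars1 at 0.48 and Iars1 at 0.64, all lower than over all arrays. Hars1 was then at 0.42, Nars1 at 0.66, Sars1 at 0.71 and Gars1 at 0.74. Whether the pancreas transcripts bear on these changes was not tested. The difference between 3' and 5' control probe sets for actin and Gapdh, a measure of RNA integrity, was 2.46, 1.92 and 2.29 in high fat pups, against 2.18, 2.42 and 3.06 in control pups. With that difference as a covariate the cytosolic median was 0.26 and 6 of the 19 genes were higher with an unadjusted p under 0.05. In that fit 10.6% of all genes tested had such a p in either direction, against 14.1% without the covariate.

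Not all cytosolic enzymes leaned upward. Qars1, the glutamine enzyme, was 10.90, 10.67 and 10.82 in high fat pups, against 10.92, 11.21 and 10.98 in control pups. All high fat arrays were lower, replicate 1 only narrowly, at a change of -0.24 (SE 0.14, limma adjusted p = 0.493). The phenylalanine enzyme is built from subunits encoded by Farsa and Farsb. Farsa was at 8.98, 9.01 and 8.75 in high fat pups and 8.85, 8.83 and 8.99 in control pups, a change of 0.020 (SE 0.13). Farsb was at 9.40, 10.10 and 9.20 in high fat pups and 9.95, 9.79 and 9.62 in control pups, a change of -0.22 (SE 0.25), with high fat replicate 2 above all other arrays. A second Farsb probe set under the brightness limit gave 0.79. Wars1, the tryptophan enzyme, which interferon also induces, was spread from 8.52 to 9.34 in high fat pups and from 8.84 to 9.26 in control pups (-0.054, SE 0.24).

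Enzymes inside and outside the multisynthetase complex had medians of the same size. The 7 enzymes of the complex had a median change of 0.29 with 5 higher, and 3 of them (Iars1, Lars1 and Mars1) had an unadjusted p under 0.05. The 12 outside it had a median of 0.29 with 10 higher and 5 at a p under 0.05. Synthetases also fall into structural classes that differ in the fold of the catalytic domain, and here 9 class I genes had a median of 0.29 and 9 class II genes 0.33, with 4 in each at a p under 0.05. Eprs1 joins both classes in 1 protein and was left out of that count. Over all genes tested 46.9% were higher, and 6.56% were higher with an unadjusted p under 0.05. Among the scaffolds Eef1e1 was highest relative to control, at 11.02, 10.94 and 10.73 in high fat pups, against 10.18, 10.61 and 10.46 in control pups (0.48, SE 0.16, limma adjusted p = 0.285). Aimp2 was at 0.21 (SE 0.12) and Aimp1 at 0.22 (SE 0.16).

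**Figure D3:**
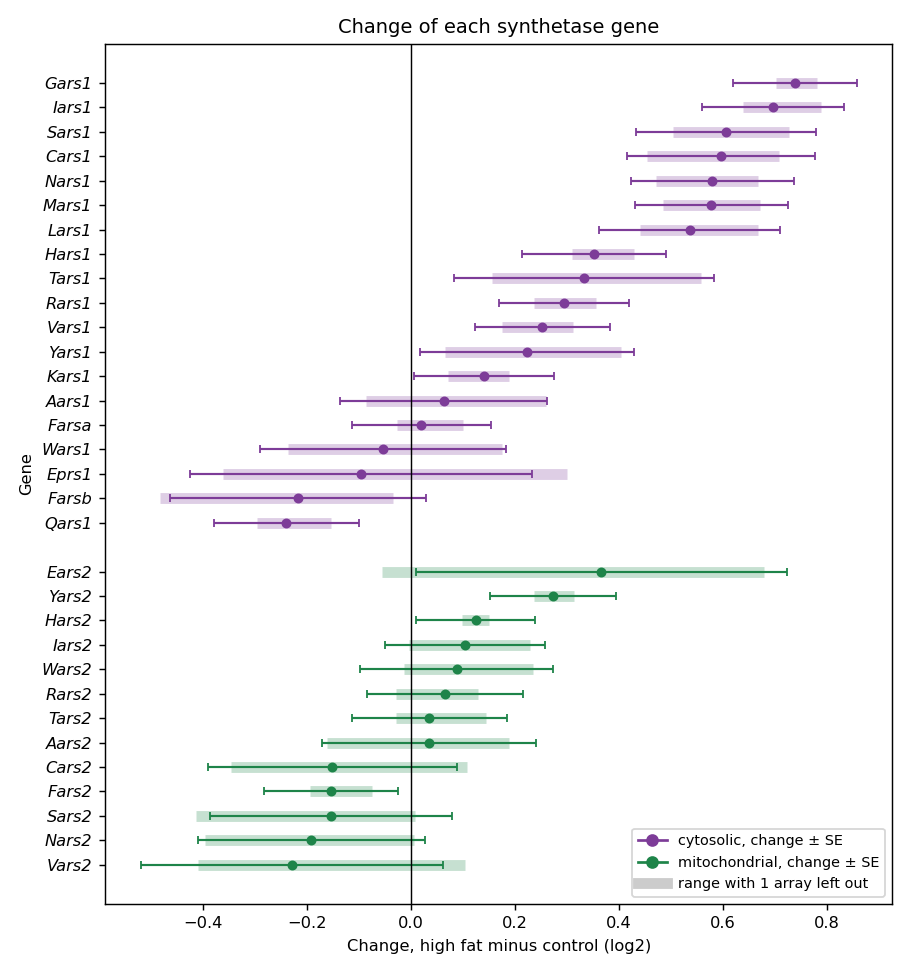
Change of each of the 32 synthetase genes (log2, high fat minus control) as a point with its SE, cytosolic genes above and mitochondrial genes below, and a pale bar for the range of the change with 1 array left out. The cytosolic points reach from -0.24 to 0.74 and the mitochondrial points from -0.23 to 0.37.

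The mitochondrial enzymes lay on both sides of 0. Yars2, the mitochondrial tyrosine enzyme, had the smallest p, at 10.26, 10.31 and 10.16 in high fat pups, against 9.98, 9.90 and 10.04 in control pups. All high fat arrays were above all controls, 1.21-fold (0.27, SE 0.12, limma adjusted p = 0.374). Hars2 was at 9.49, 9.54 and 9.45 in high fat pups and 9.38, 9.35 and 9.38 in control pups, also without overlap, at a change of 0.12 (SE 0.11). Its second probe set gave the same 0.12 with the groups overlapping. Fars2 was the 1 member below all controls, at 8.86, 9.09 and 9.08 in high fat pups, against 9.12, 9.23 and 9.14 in control pups (-0.15, SE 0.13).

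Among the widest mitochondrial values, several moved with single arrays. Ears2, the mitochondrial glutamate enzyme, had the largest upward value at 0.37 (SE 0.36), with 7.39, 7.35 and 7.15 in high fat pups and 7.15, 6.09 and 7.55 in control pups. Without control replicate 2, the lowest array, it was at -0.055. Vars2, the mitochondrial valine enzyme, was at 7.94, 6.92 and 7.89 in high fat pups and 7.62, 7.84 and 7.98 in control pups (-0.23, SE 0.29). Without high fat replicate 2 its change was 0.10. Sars2, for mitochondrial serine, had 7.76, 6.92 and 7.05 in high fat pups, against 7.27, 7.46 and 7.46 in control pups (-0.15, SE 0.23), and was at 0.0083 without high fat replicate 2 and at -0.41 without high fat replicate 1, where its unadjusted p was under 0.05.

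Nars2, the mitochondrial asparagine enzyme, was at 8.28, 7.85 and 7.47 in high fat pups and at 7.95, 8.03 and 8.20 in control pups (-0.19, SE 0.22). Cars2, for mitochondrial cysteine, was at 8.53, 8.78 and 7.88 in high fat pups and 8.44, 8.55 and 8.66 in control pups (-0.15, SE 0.24). Both were lowest in high fat replicate 3, and without it Nars2 was at 0.0052 and Cars2 at 0.11. The counterparts of Iars1, Rars1 and Tars1 had changes smaller than their SE. Iars2 was at 9.65, 9.56 and 9.57 in high fat pups and at 9.46, 9.74 and 9.28 in control pups (0.10, SE 0.15). Rars2 was at 9.38, 9.07 and 9.13 in high fat pups and at 9.19, 9.24 and 8.96 in control pups (0.065, SE 0.15). Tars2 was at 9.99, 9.68 and 10.03 in high fat pups and at 9.82, 9.99 and 9.78 in control pups (0.036, SE 0.15). In all of these the groups overlapped, as they did in Wars2, at 0.088 (SE 0.19), and in Aars2, at 0.034 (SE 0.21).

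**Figure D4:**
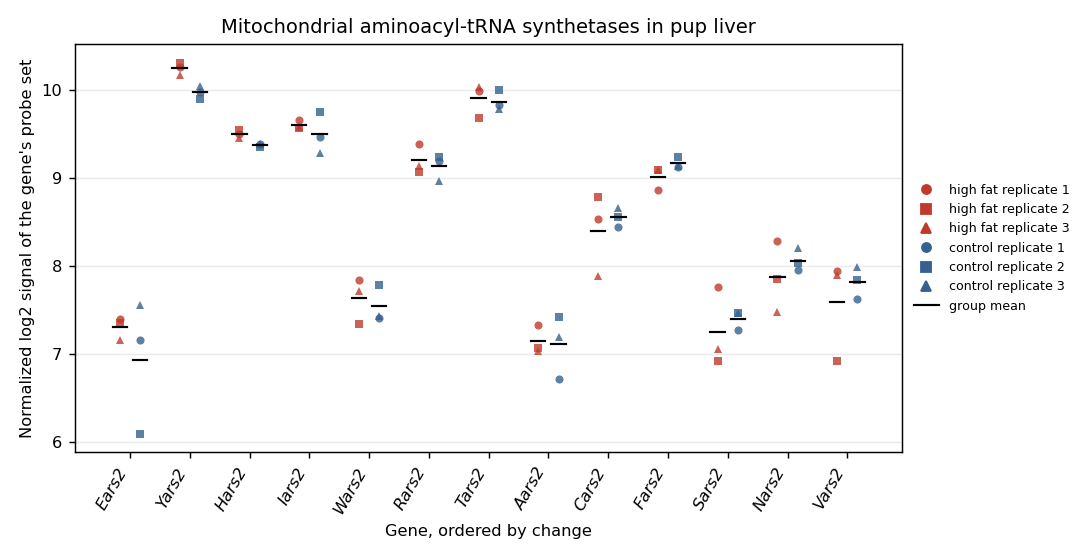
Normalized log2 signal of the 13 mitochondrial synthetase genes on each array, with high fat pups left of control pups for each gene, marker shape for the replicate and a black line for each group mean. The groups overlap in all but 3 genes, Yars2 and Hars2 with the high fat points above and Fars2 with them below.

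To compare the compartments directly, the cytosolic signal was set against the mitochondrial signal of the same amino acid within each array. There were 14 such gene pairs for 13 amino acids, phenylalanine counting 2 times. The cytosolic change was the larger in 10 of the 14, with a median difference of 0.23. That median was 0.36 without control replicate 1, 0.13 without control replicate 2 and 0.14 without high fat replicate 2. Cysteine (Cars1 less Cars2) differed by 0.75 (SE 0.28) and isoleucine (Iars1 less Iars2) by 0.59 (SE 0.13). The groups did not overlap in these 2 of the 14 pairs. That share is no larger than the 20.8% of all single genes tested that had no overlap in either direction. The exact permutation p, 2-sided, was 0.1 for cysteine and for isoleucine, the smallest that 3 against 3 arrays can give, and 0.467 after adjustment over the 14 pairs. Asparagine (0.77, SE 0.33), serine (0.76, SE 0.42) and valine (0.48, SE 0.30) had positive differences with overlapping groups, each at an exact permutation p of 0.2. Tyrosine (-0.050), Farsb less Fars2 for phenylalanine (-0.064), tryptophan (-0.14) and glutamate (-0.46, SE 0.59) had negative differences. With 1 array left out, the isoleucine difference stayed between 0.49 and 0.68 and the cysteine difference between 0.59 and 0.97.

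**Figure D5:**
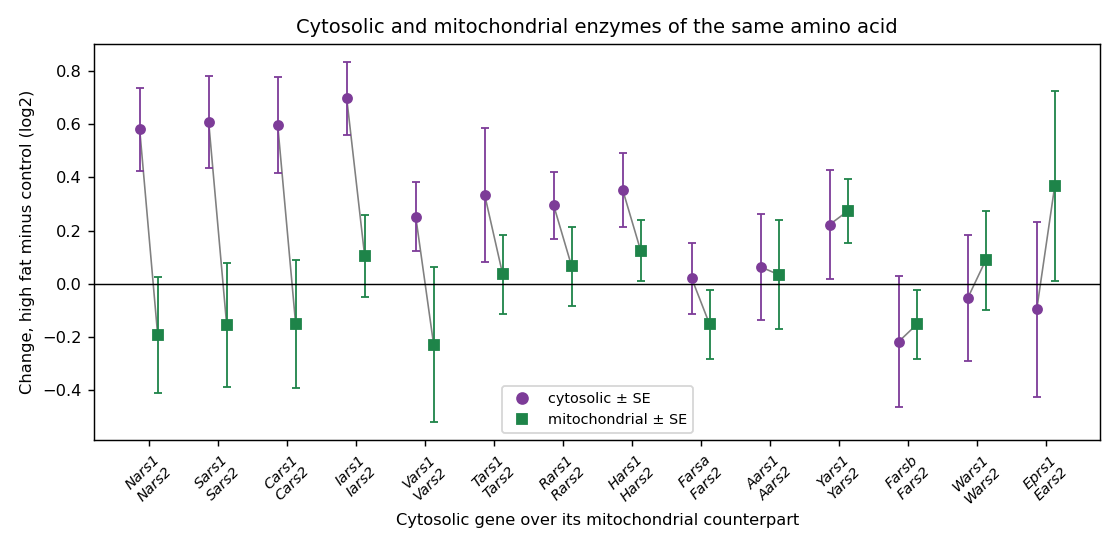
Changes (log2, high fat minus control, with SE) of the cytosolic enzyme at the left and the mitochondrial enzyme at the right of each of 14 pairs for the same amino acid, ordered by their difference. The first 4 pairs, asparagine, serine, cysteine and isoleucine, differ by 0.59 to 0.77, and the last, glutamate, by -0.46.

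The histidine pair is also a pair on the chromosome. In RefSeq (build GRCr8) Hars1 runs on the minus strand of chromosome 18 from a start at position 28672712 and Hars2 on the plus strand from 28672856, so that the genes point away from each other across 143 bases. Promoter windows of 250 bases before to 50 after each start shared 243 of their 300 bases. The stretch below, plus strand, runs from the first transcribed base of Hars1 to that of Hars2, and is shown because 1 stretch of DNA serves both a cytosolic and a mitochondrial member.
Hars1 to Hars2, chr18:28672712-28672856: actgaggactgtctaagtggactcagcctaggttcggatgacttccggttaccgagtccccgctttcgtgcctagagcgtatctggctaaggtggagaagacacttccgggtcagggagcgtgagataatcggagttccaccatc
From these neighbouring starts Hars1 was at 0.35 and Hars2 at 0.12, a difference of 0.23 (SE 0.10, exact permutation p = 0.2, 2-sided). This order rests on the brightest probe set of each gene: with the mean of a gene's probe sets Hars1 was at 0.018 (limma unadjusted p = 0.941), below Hars2 at 0.12.

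The core of the C/EBP-ATF element was then looked for in the same windows, as the letters TGATGNAA on either strand. The table held windows for 30 of the 32 genes, all but Gars1 and Rars1. The letters occurred in 7 of 17 cytosolic windows, 41.2%, and in 0 of 13 mitochondrial windows. They were held by 3.98% of all 33469 windows in the table, and of the 9665 windows of genes tested 2.07%. In each of the 7 the open base was C in at least 1 match, a form found in 0.621% of the windows of genes tested. For each of the 7 genes 1 match is printed in the gene's own direction with its flanks. The 8 letters are in capitals (TTGCATCA is the same element on the other strand). They are alike because the search asked for them, with only the open base free.
Iars1, chr17:15193643-15193702: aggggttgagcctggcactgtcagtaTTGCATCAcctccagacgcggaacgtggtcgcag
Cars1, chr1:208225320-208225378: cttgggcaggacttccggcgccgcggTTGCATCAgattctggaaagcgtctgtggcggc
Nars1, chr18:60275763-60275822: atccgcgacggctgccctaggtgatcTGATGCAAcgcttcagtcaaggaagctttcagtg
Mars1, chr7:65023737-65023796: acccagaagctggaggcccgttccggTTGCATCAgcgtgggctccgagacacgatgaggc
Tars1, chr2:62114796-62114855: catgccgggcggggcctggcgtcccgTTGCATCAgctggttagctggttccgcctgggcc
Yars1, chr5:146820175-146820212: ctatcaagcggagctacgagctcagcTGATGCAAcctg
Aars1, chr19:55908344-55908403: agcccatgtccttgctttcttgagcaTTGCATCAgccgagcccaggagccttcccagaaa
Cars1, Iars1, Mars1, Nars1 and Tars1 carry the first letter close to the start, between position -27 (Tars1) and position 18 (Cars1). Yars1 has it at position 39, and Aars1 at -112 with a second match (TGATGAAA) at position 10. Genes on the minus strand are Iars1, Cars1, Nars1, Mars1 and Tars1, and those on the plus strand Yars1 and Aars1.

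The 7 cytosolic genes with the letters were all higher in high fat pups, by 0.063 (Aars1) to 0.70 (Iars1), with a median change of 0.58. Over all genes tested 46.9% were higher. In Aars1 (SE 0.20), Yars1 (0.22, SE 0.21) and Tars1 (0.33, SE 0.25) the groups overlapped, and in Cars1, Iars1, Mars1 and Nars1 they did not. The share of all genes tested with every high fat array above every control array was 9.24%. Without control replicate 2, Aars1 was at -0.087. The 10 cytosolic genes with a window and without the letters had a median of 0.080, with 6 higher. They ranged from -0.24 (Qars1) to 0.61 (Sars1), so Sars1 and Lars1 were among the higher members with no such letters in this window. Among these 10, too, the groups did not overlap in Sars1, Lars1, Hars1 and Vars1, which were higher, and in Qars1, which was lower. These medians are a description of 17 genes and carry no test. The presence of the letters does not show that ATF4 was bound. Of 5 genes of the GCN2 and ATF4 pathway, Trib3 held them in its window (TGATGTAA, at position -21), and Asns, Atf4, Ddit3 and Eif2ak4 did not.

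ATF4 itself is controlled mainly in translation, and its transcript overlapped between the diets. Atf4 averaged 12.15 ± 0.30 in high fat pups and 12.29 ± 0.26 in control pups (SD, n = 3 each), a change of -0.14 (SE 0.21). Eif2ak4, which encodes GCN2, was at 8.91, 8.83 and 8.32 in high fat pups and 8.81, 9.43 and 9.54 in control pups (-0.57, SE 0.25). Asns, which makes asparagine and is a classic ATF4 target, was at 9.52, 10.23 and 9.49 in high fat pups, against 7.60, 7.11 and 6.31 in control pups (2.74, SE 0.36, limma adjusted p = 0.119). Trib3 was at 0.88 (SE 0.40) and Ddit3 at 0.20 (SE 0.27), with overlapping groups for both.

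Other genes that serve the charged tRNA gave a mixed picture. Of 8 partners tested, in tRNA export, editing, peptidyl-tRNA release and selenocysteine synthesis, 5 were higher and 3 lower, and 1, Xpot, met the looser rule. Of all genes tested 46.9% were higher and 3.34% met that rule as higher. Every high fat array lay above every control array in 9.24% of them. Xpot, the exportin that carries tRNA out of the nucleus, was at 9.82, 10.19 and 10.07 in high fat pups, against 9.42, 9.36 and 9.25 in control pups. No array overlapped, and the gene was 1.61-fold higher (0.68, SE 0.14, limma adjusted p = 0.185). Xpo5 was at 0.20 (SE 0.13) and Aarsd1, an editing protein related to the alanine enzyme, at -0.37 (SE 0.21).

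The elongation factors of the cytosol lay on both sides of 0. Of 6 genes tested, the kinase Eef2k counted with the elongation factors, 3 were higher and 3 lower. Their median was -0.016, and none had an unadjusted p under 0.05. Eef1a1, which brings charged tRNA to the ribosome, was at 0.11 (SE 0.12), Eef1g at 0.13 (SE 0.12) and the kinase Eef2k at -0.31 (SE 0.28). Of 20 initiation genes, Eif4ebp1 and Eif4ebp2 counted with the factors, 13 were higher with a median of 0.061. Of these 20, 4 had an unadjusted p under 0.05, all higher. Over all genes tested 46.9% were higher and 6.56% were higher with such a p. The 4 were Eif4ebp1, which restrains cap-dependent initiation and is itself an ATF4 target (0.53, SE 0.15), the helicase Eif4a2 (0.41, SE 0.12), Eif4b (0.49, SE 0.16) and Eif2s2, a subunit of the factor that carries the initiator tRNA (0.33, SE 0.13), the last named after its value was seen.

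Mitochondrial translation factors, too, lay on both sides of 0. Of 12 tested, 6 were higher and 6 lower with a median of 0.024. Mtrf1, a release factor of the mitochondrion, was the 1 gene of the 12 at an unadjusted p under 0.05 (0.44, SE 0.17), a share near the 6.56% of all genes tested that were higher with such a p. Mtfmt, which formylates the initiator methionyl-tRNA, was at -0.30 (SE 0.14), and the elongation factor Tufm at 0.17 (SE 0.12).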

How the data were processed

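The 6 pup livers had 1 array each. The authors deposited log2 values for 31099 probe sets. The scale was found from the values, since undoing base 2 gave every array a 2% trimmed mean of 500.2. On each array 91 to 144 of the lowest values stood at 0. No label names the software behind these values. Array quartiles lay up to 0.22 apart before quantile normalization. Control probe sets (57) entered no test. Of the other 31042, 20826 named 1 gene, 436 named several (2 of them with a synthetase symbol, not used) and 9780 were not named here. Probe sets below 5.83, the dimmest 40% by mean, were dropped. Diets were compared by limma 3.58.1 in R 4.3.3. Its 2-sided p-values, from lmFit and eBayes, were adjusted over 10372 genes by Benjamini and Hochberg's method. Gene pairs were compared within arrays by an exact permutation test. Figures used matplotlib 3.10.9 in Python 3.11.15.

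The procedure was first tested on simulated data. The synthetase genes and the other lists were chosen with earlier results of these data known. Values per array are given for the 12 cytosolic and 6 mitochondrial genes with the smallest p and for their counterparts in the other compartment. Aars1 was added after its values were seen. From each other list the 3 genes with the smallest p are named, and 5 genes of the GCN2 and ATF4 pathway always. Promoter windows are from RefSeq, build GRCr8. Sample titles carry a number from 1 to 3 in both diets. Same-numbered arrays did not deviate together (correlations across genes of -0.13, -0.13 and -0.14), so the numbers do not pair them. The number of arrays limits the precision.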

Additional observations from a re-analysis of the deposited data

How the results depend on the processing

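None of the 32 synthetase genes passed limma's adjusted p under 0.05 in any alternative fit, and with a variance trend Gars1 came to 0.066. The cytosolic median change stayed above 0, from 0.23 to 0.40 with 1 array left out. It was 0.41 with high fat replicates 1 and 3 left out together, which leaves replicate 2 as the only high fat array. That setting also gave a mitochondrial median of -0.062 and a difference of medians of 0.47. The difference of medians, 0.26 over all arrays, ranged from 0.13 to 0.39 with 1 array left out, lowest without control replicate 2 or high fat replicate 2. The mitochondrial median ranged from -0.029 to 0.10 with 1 array left out. The looser rule held for 3 to 7 synthetase genes with 1 array left out, and over all arrays 6.71% of all genes tested met it. At any fold, 8 synthetase genes had an unadjusted p under 0.05 over all arrays, as did 14.1% of all genes tested. With 1 array left out, 10.2% to 13.2% of all genes tested had such a p. Over all genes, 4 passed the adjusted threshold, against 1 with no brightness filter or with the lowest 20% of probe sets left out, 8 with a variance trend, 0 with the covariate for RNA integrity and 0 to 4 with 1 array left out. With the replicate block 0 genes passed, and 1103 had an unadjusted p under 0.05 in limma. Directions turned for several genes, among them Ears2, Farsb and Vars2, whose changes over all arrays were 0.37, -0.22 and -0.23. Eprs1 was at 0.0030 with the mean of its probe sets, and Sars2 at 0.0096 and Vars2 at 0.045 with the covariate for RNA integrity. With high fat replicates 1 and 3 left out, Cars2 was at 0.24, Farsb at 0.31, Rars2 at -0.062 and Tars2 at -0.18. With 1 array left out Eprs1 ranged from -0.36 to 0.30, Ears2 from -0.055 to 0.68, Farsa from -0.026 to 0.10, Iars2 from -0.0041 to 0.23, Rars2 from -0.029 to 0.13, Tars2 from -0.029 to 0.14, Sars2 from -0.41 to 0.0083, Vars2 from -0.41 to 0.10, Cars2 from -0.35 to 0.11, Nars2 from -0.40 to 0.0052, Aars1 from -0.087 to 0.26, Aars2 from -0.16 to 0.19, Wars1 from -0.24 to 0.18 and Wars2 from -0.014 to 0.23. Beyond fewer arrays, the cause was not tested. The count of promoters with the letters was 7, or 5 when only the bases before the start were read.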

Other observations

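The further probe sets of the synthetase genes were read as a second look at the same transcripts. Of the 32 genes, 14 had more than 1 probe set, with 18 further ones in all, and 12 of the 18 had the sign of the first. Among the 13 above the brightness limit, 9 did. Lars1 gave 0.89 on its second probe set and Gars1 0.83, both far dimmer than the first, with control replicate 3 lowest on each. Wars1 gave -0.87 on its second probe set, against -0.054 on the first. The 3 probe sets of Eprs1 besides the first gave -0.13, 0.039 and 0.20, and control replicate 1 was the highest array on each.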
